A study of Mus musculus with 40 samples.

Results

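The genes described here are 8 CC chemokine ligands that draw monocytes, Ccl2, Ccl3, Ccl4, Ccl6, Ccl7, Ccl8, Ccl9 and Ccl12, and the receptor Ccr2. They were chosen by name, with earlier results of these data known, and all 9 were found among the 55536 genes of the count tables. Their RNA was followed in 40 left-lung libraries from C57BL/6 mice, in 8 groups of 5 replicates, from a study of both sexes. Mice of the first model received saline or bleomycin, which breaks DNA, at 1.5 U/kg by oropharyngeal instillation. Mice of the second model, called Ad-TGFβ1, received an empty adenovirus or an adenovirus that makes mouse TGF-β1 from a CMV promoter, by the nose. Each of these 4 kinds of lung came from mice gavaged daily from day 10 with vehicle or with the Src kinase inhibitor saracatinib (20 mg/kg). Lungs were taken on day 28, and the series compares the transcriptional changes of the 2 fibrosis models.

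Chemokines are small secreted proteins that guide leukocytes through receptors coupled to G proteins. CCL2, CCL7 and CCL12 act on CCR2, the receptor that classical monocytes use to leave the bone marrow and enter injured tissue. Mouse CCL8 acts mainly on CCR8, and CCL6, CCL9 and CCL3 act on CCR1. CCL4 is a close relative of CCL3. Monocytes that enter the fibrotic lung become macrophages, and macrophages themselves secrete many of these ligands.

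The total count per library was 8812233 to 17336972. A level is given in CPM, the count relative to the library's TMM-scaled total, or in RPKM, which also divides by the merged exon length in kilobases. A change is a log2 fold change ± SE from edgeR's quasi-likelihood test, and a gene is called at an adjusted p under 0.05 over all genes tested. The labels call the 5 libraries of a group replicates and do not say that each is a separate mouse, so p-values measure the spread between these libraries. Where single lungs are counted or compared, a lung stands for a library. Library numbers are names and link nothing across groups. Lung RNA was present in every group, since the 9 epithelial markers (surfactant genes, Ager, Scgb1a1 and others) summed to between 8010 and 12200 CPM. In bulk lung, fewer cells of a type and less RNA per cell cannot be told apart.

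The 8 ligands lie in a pair of clusters on mouse chromosome 11 (GRCm38), and all 9 members are protein-coding. Ccl2 (chr11:82035571-82037453), Ccl7 (chr11:82045712-82047525), Ccl12 (chr11:82101845-82103400) and Ccl8 (chr11:82115185-82116799) lie on the plus strand in that order. Further along the chromosome are Ccl9 (chr11:83572919-83578636), Ccl6 (chr11:83587882-83593087) and Ccl3 (chr11:83647844-83649355) on the minus strand and Ccl4 (chr11:83662584-83664683) on the plus strand. Ccr2 lies at chr9:124101950-124113557 on the plus strand. Ccl2 lies inside Gm17268, and Ccl6 lies inside E230016K23Rik, each on the opposite strand. The shared exon bases are 0 in both cases, and these partners had 0 to 2 and 1 to 19 counts. The members resemble each other in sequence and the counting settings are not known here, so reads could have been split between close relatives.

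Promoter sequences of 6 members were matched by symbol in the RefSeq table (GRCm38.p6): Ccl3, Ccl6, Ccl8, Ccl9, Ccl12 and Ccr2. Ccl2, Ccl4 and Ccl7 had no entry. Ccl9 and Ccl6 are shown because they had the highest levels per length of the ligands after bleomycin, and Ccl3 because it had the largest change of the members with Ad-TGFβ1. Each runs 5′ to 3′ over the 250 bases before RefSeq's start, on the gene's strand, and capitals mark a motif match. They lie at chr11:83578637-83578886 (Ccl9, minus strand), chr11:83593088-83593337 (Ccl6, minus strand) and chr11:83649379-83649628 (Ccl3, minus strand).
Ccl9: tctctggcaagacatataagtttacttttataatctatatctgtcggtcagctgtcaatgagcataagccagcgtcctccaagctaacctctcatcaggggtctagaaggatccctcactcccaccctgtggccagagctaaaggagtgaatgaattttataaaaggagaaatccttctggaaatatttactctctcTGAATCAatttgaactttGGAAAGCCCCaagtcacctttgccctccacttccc
Ccl6: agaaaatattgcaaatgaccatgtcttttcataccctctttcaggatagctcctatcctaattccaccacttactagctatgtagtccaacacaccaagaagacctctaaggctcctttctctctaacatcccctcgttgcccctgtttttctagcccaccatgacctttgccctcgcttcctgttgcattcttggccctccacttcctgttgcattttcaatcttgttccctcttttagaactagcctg
Ccl3: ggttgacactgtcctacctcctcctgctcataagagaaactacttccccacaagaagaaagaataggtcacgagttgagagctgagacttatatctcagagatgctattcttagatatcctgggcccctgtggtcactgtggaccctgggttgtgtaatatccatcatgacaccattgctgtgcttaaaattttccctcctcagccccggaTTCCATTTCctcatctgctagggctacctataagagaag

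Both strands of the 300-base windows, which run 50 bases past the start, were searched for the motifs of 5 factors of inflammation and TGF-β signalling. These were the κB motif by its name, AP-1 (TGANTCA), GAS (TTCNNNGAA), ISRE (GAAANNGAA) and SMAD (CAGACA). In the Ccl9 window, a κB match on the other strand starts 35 bases before the start of the gene and an AP-1 match starts 53 bases before it, without overlap. The Ccl3 window holds an ISRE match on the other strand 39 bases before the start, and a SMAD match after the start that is not printed. The Ccr2 window holds an ISRE match, and the windows of Ccl6, Ccl8 and Ccl12 hold none of the 5. Of 32851 RefSeq promoters of this length, 8.46% hold κB, 7.81% AP-1, 8.30% GAS, 8.56% ISRE and 21.0% SMAD. A match is a description of letters only.

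Ccl6 had the highest mean level per length of the 9 genes in all 8 groups. In saline vehicle lungs its level was 18.8 ± 6.55 RPKM (SD, n = 5). It was followed by Ccr2 at 4.37 ± 0.449 RPKM, Ccl8 at 3.11 ± 3.21 and Ccl9 at 2.54 ± 0.509. Ccl12, Ccl7, Ccl2, Ccl3 and Ccl4 followed with means of 0.405 to 1.17 RPKM, and neighbours among them overlapped. With bleomycin and vehicle, Ccl6 reached 96.0 ± 25.6 RPKM and Ccl9 came second at 15.0 ± 8.59. With Ad-TGFβ1 and vehicle, Ccl6 was at 73.3 ± 10.0 RPKM, and Ccl8 at 14.2 ± 1.21 and Ccr2 at 11.9 ± 1.99 came next with overlapping ranges. With median transcript lengths instead of merged exons, Ccl6 stayed first in every group, while Ccl8 with Ad-TGFβ1 and vehicle moved from place 2 to place 4. Summed over the 8 ligands, the level was 27.8 ± 6.39 RPKM in saline vehicle lungs, 127 ± 35.1 with bleomycin, 51.2 ± 19.7 with empty vector and 110 ± 13.7 with Ad-TGFβ1. Ccl6 made up 75.9 ± 2.26% of that sum with bleomycin and 44.7 ± 15.1% with empty vector, where Ccl8 was high. With empty vector and vehicle, Ccl6 had 11.9 to 42.1 RPKM and Ccl8 7.75 to 32.8 RPKM, with overlapping ranges. These sums and shares rest on merged exon lengths. With median transcript lengths the mean of Ccl6 in that group was 51.6 RPKM instead of 22.3, and that of Ccl8 stayed at 17.7.

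**Figure D1:**
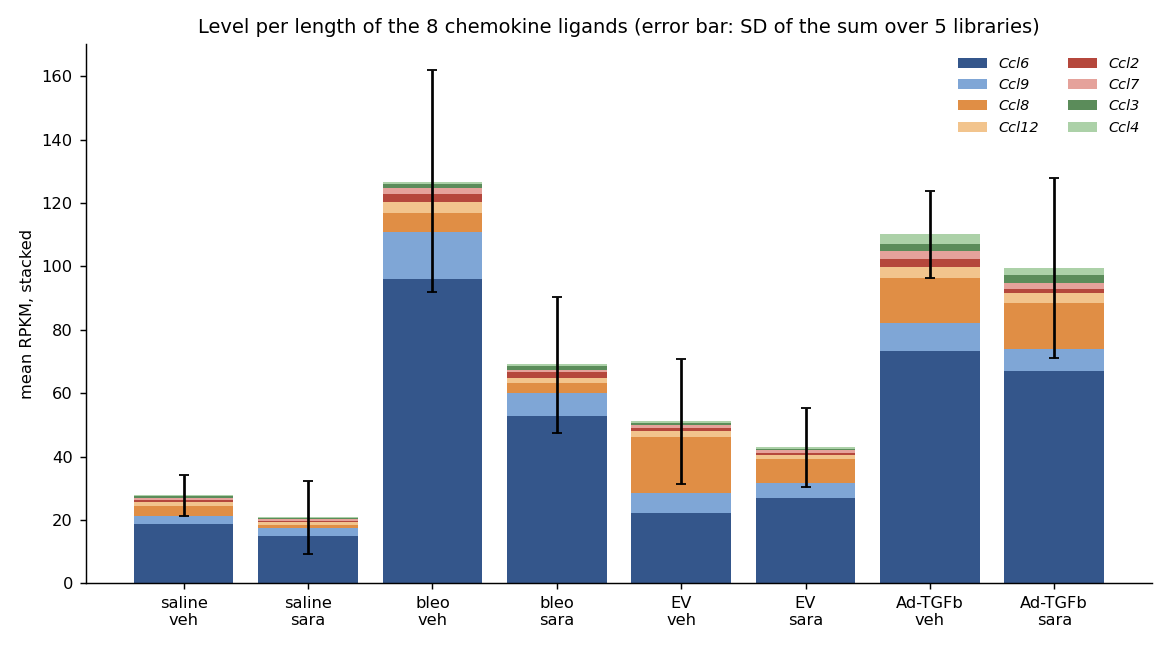
Mean level per length (RPKM, stacked) of the 8 ligands in each of 8 groups of 5 libraries. Here veh is vehicle, sara is saracatinib and EV is empty vector, and the error bar is the SD of the summed level. The sum was 27.8 RPKM in saline vehicle lungs, 127 with bleomycin and vehicle and 69.0 with bleomycin and saracatinib, and Ccl6 is the largest part in every bar.

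In vehicle lungs, Ccl2, Ccl7 and Ccl12 of the CCR2 ligands, Ccl6 and Ccl9 of the CCR1 ligands and the receptor Ccr2 itself rose with bleomycin. Called higher were 6 of the 8 members tested (Ccl2, Ccl6, Ccl7, Ccl9, Ccl12 and Ccr2), and none was called lower. Among all 18846 genes tested, 20.6% were called higher and 20.3% lower. The median change of the 8 members was 1.54, against -0.03 for all genes. Ccl4 did not pass the filter on low counts in this model, with 1 to 10 counts in the vehicle libraries. With no filter it differed by 0.66 ± 0.49 (adjusted p = 0.419).

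Ccl9, a CCR1 ligand of myeloid cells, had the largest change of the members. Its level was 6.88, 6.15, 8.97, 9.78 and 6.92 CPM in the saline lungs and 28.2, 51.4, 88.9, 35.0 and 25.4 CPM in the bleomycin lungs. Every bleomycin lung lay above every saline lung, and library 3 stood highest. The change was 2.54 ± 0.34 (adjusted p = 1.43e-05). Ccl6, the other ligand of this pair, had 41.7, 32.4, 28.3, 48.2 and 18.0 CPM in saline lungs and 136, 184, 245, 164 and 132 CPM in bleomycin lungs. The groups did not overlap, library 3 was again the highest, and the change was 2.33 ± 0.34 (adjusted p = 3.27e-05).

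Of the CCR2 ligands, Ccl2, the best-known monocyte attractant, had 0.454, 0.665, 0.702, 0.634 and 0.851 CPM in saline lungs and 1.61, 2.18, 6.03, 1.72 and 2.98 CPM in bleomycin lungs. All bleomycin lungs were above all saline lungs, with library 3 far above the other four. The change was 2.11 ± 0.53 (adjusted p = 0.00338). Ccl12 had 0.302, 0.333, 0.858, 0.906 and 0.745 CPM in saline lungs and 1.35, 2.18, 0.964, 2.44 and 2.27 CPM in bleomycin lungs. These groups were also separate, though library 3 was here the lowest of the bleomycin lungs, and the change was 1.54 ± 0.46 (adjusted p = 0.0115). Ccl7 had 0.362 to 0.745 CPM (median 0.454) in saline lungs and 0.676 to 2.33 CPM (median 1.63) in bleomycin lungs, so that 4 of 5 bleomycin lungs lay above every saline lung. Its change of 1.53 ± 0.58 passed narrowly (adjusted p = 0.0378). It was not called by limma voom (adjusted p = 0.0697), nor in 8 of the 10 fits that left out 1 library (adjusted p up to 0.0878).

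Ccr2 had 27.2, 27.1, 31.4, 34.0 and 28.0 CPM in saline lungs and 39.0, 67.2, 41.0, 51.1 and 53.9 CPM in bleomycin lungs. The receptor was higher in every bleomycin lung, with a change of 0.75 ± 0.16 (adjusted p = 0.000873). Ccl3 differed by 0.96 ± 0.49 (adjusted p = 0.115) and Ccl8 by 0.89 ± 0.46 (adjusted p = 0.127), and neither was called by edgeR. limma voom called Ccl8 (1.22 ± 0.43, adjusted p = 0.0284). The saline range of Ccl8 was set by library 3 at 4.44 CPM, the other four lying between 0.529 and 1.49 CPM, against 2.03 to 3.97 CPM after bleomycin. Without that saline library the change of Ccl8 was 1.80 ± 0.39 (adjusted p = 0.00147).

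Most markers of tissue and scar macrophages and some of classical monocytes rose with bleomycin as well. Among all genes, 20.6% were called higher and 20.3% lower. Of 18 markers of tissue and scar macrophages, 14 rose with bleomycin, among them Mmp12 by 4.43, Arg1 by 3.87, Trem2 by 3.51 and Gpnmb by 3.15. Their summed level was 589 to 773 CPM in saline lungs and 1780 to 3240 CPM in bleomycin lungs, and no marker was at 0 in all libraries of either group. The highest sum, 3240 CPM, was in library 3, which had the highest Ccl2, Ccl6, Ccl7 and Ccl9 and the lowest Ccl3, Ccl4 and Ccl12. Of 8 markers of classical monocytes, 4 rose (Chil3 by 1.82, F10 by 1.32, Plac8 by 0.91 and Ly6c2 by 0.85). Without Hp, the gene with the highest level of the 8, their summed level was 107 to 227 CPM in saline lungs and 357 to 586 CPM in bleomycin lungs. Ly6c2 had 3.3 to 6.07 CPM in saline lungs and 6.08 to 9.85 CPM in bleomycin lungs. Plac8 had 7.56 to 14.4 and 15.0 to 27.3 CPM. These levels are a small part of the sum, which rested mainly on the other markers of the list. Of 8 markers of non-classical monocytes, 1 rose and 2 fell, and without Ace their sums overlapped, at 104 to 172 and 118 to 233 CPM. Other cell types moved as well. Of 16 T and NK cell markers 7 rose, with sums of 47.5 to 66.8 and 85.4 to 111 CPM, and of 10 dendritic cell markers 4 rose and 1 fell, with sums of 132 to 169 and 182 to 202 CPM. Of 13 alveolar macrophage markers tested 6 rose and 2 fell, with sums of 318 to 487 and 698 to 1000 CPM. Of 10 ciliated cell markers 9 fell, and of 10 striated muscle markers 8 fell. The part of these cells in the chemokine changes was not tested.

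**Figure D2:**
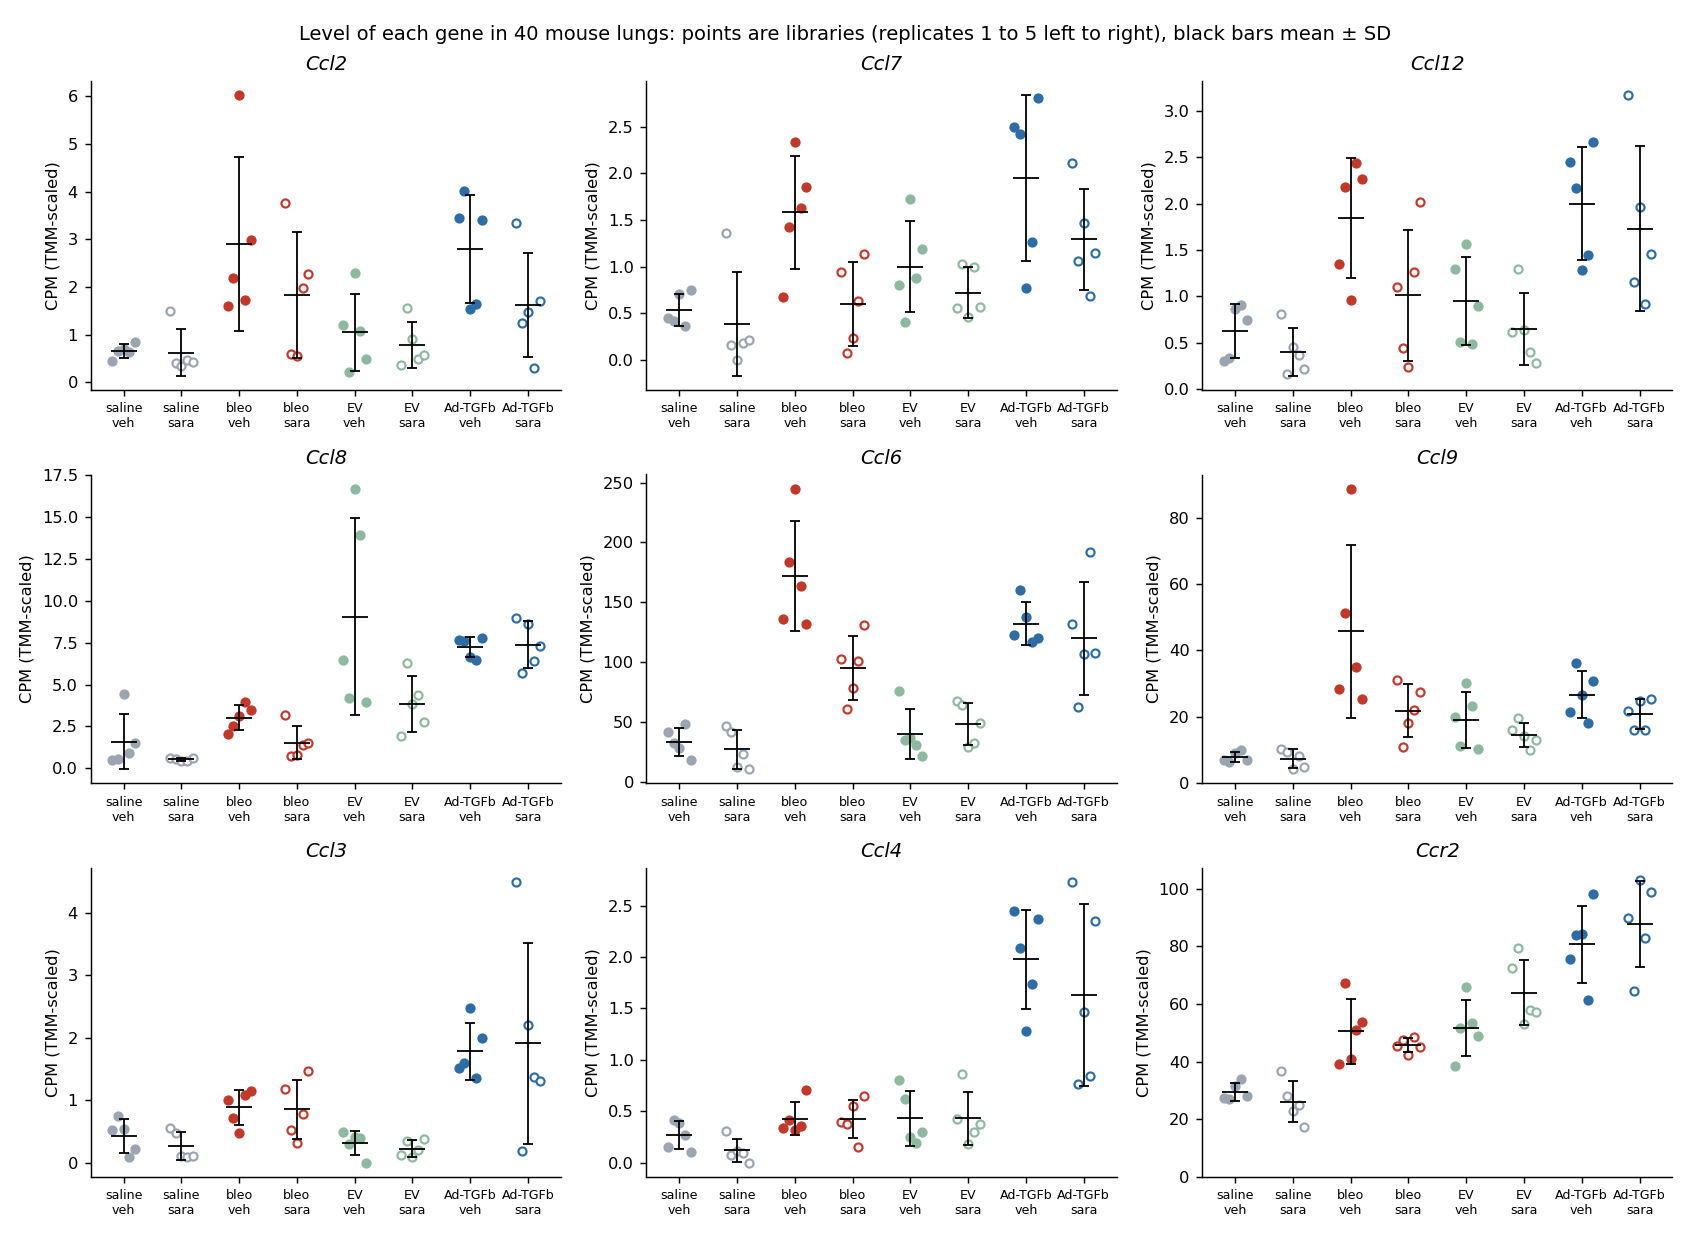
Level in CPM of the 9 genes in 40 libraries. Each point is a library, filled for vehicle and open for saracatinib, and black bars give the mean ± SD of 5. Ccl6 and Ccl9 lie highest with bleomycin and vehicle, Ccl3 and Ccl4 are higher in all 5 Ad-TGFβ1 vehicle lungs than in the empty vector vehicle lungs, and Ccl8 varies from 3.96 to 16.7 CPM in the empty vector vehicle lungs.

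In vehicle lungs, the neighbouring ligands Ccl3 and Ccl4 rose with Ad-TGFβ1, as did Ccl6 and Ccr2. Called higher were 4 of the 9 members, and none was called lower, against 11.5% of 18834 genes called higher and 14.3% lower. DESeq2 called 6 and limma voom 5. The median change of the members was 1.04, against -0.01 for all genes. Ccl3, which recruits monocytes and T cells, had 0.484, 0.307, 0.410, 0.388 and 0 CPM with empty vector and 1.51, 1.59, 2.47, 1.35 and 2.00 CPM with Ad-TGFβ1. The groups did not overlap. In the empty vector library at 0, a count of 0 allows up to 3 counts, or 0.299 CPM, which covers counting error only. The change was 2.40 ± 0.58 (adjusted p = 0.00547).

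Ccl4, its neighbour in the genome, had 0.807, 0.615, 0.246, 0.194 and 0.297 CPM with empty vector and 2.45, 2.09, 1.28, 1.74 and 2.37 CPM with Ad-TGFβ1. Again every Ad-TGFβ1 lung was above every empty vector lung, and the change was 2.16 ± 0.42 (adjusted p = 0.00144). Ccl6 had 75.6, 35.5, 36.9, 30.8 and 21.4 CPM with empty vector and 123, 160, 138, 117 and 120 CPM with Ad-TGFβ1, a change of 1.69 ± 0.31 (adjusted p = 0.00111). It was separate between the groups. Ccr2 had 38.4 to 65.8 CPM (median 51.8) and 61.4 to 98.2 CPM (median 83.9), with 4 of 5 Ad-TGFβ1 lungs above all controls. Its change was 0.63 ± 0.15 (adjusted p = 0.00555).

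The CCR2 ligands Ccl2, Ccl7 and Ccl12 had values of the same sign with Ad-TGFβ1 and were not called by edgeR, with calls that differed between tools and libraries. Ccl2 had 0.205 to 2.30 CPM (median 1.07) with empty vector and 1.54 to 4.01 CPM (median 3.40) with Ad-TGFβ1, a difference of 1.36 ± 0.51 (adjusted p = 0.0553). Ccl12 differed by 1.04 ± 0.38 (adjusted p = 0.0511) and Ccl7 by 0.94 ± 0.37 (adjusted p = 0.0673). DESeq2 called Ccl2 (adjusted p = 0.0421) and Ccl12 (adjusted p = 0.0416), and limma voom called Ccl12 (adjusted p = 0.0225). Without the 2 libraries farthest from their groups, empty vector vehicle 5 and empty vector saracatinib 2, Ccl2 was at 1.19 ± 0.52 (adjusted p = 0.118) and Ccl12 at 1.02 ± 0.39 (adjusted p = 0.0796). Empty vector library 3 was the highest of its group for all 3 of them. Without it the changes were 1.85 ± 0.55 for Ccl2 (adjusted p = 0.0215), 1.28 ± 0.42 for Ccl12 and 1.23 ± 0.40 for Ccl7 (adjusted p = 0.0322 for each). Leaving out Ad-TGFβ1 library 3, the lowest of its group for the same 3 genes, also gave calls for all of them (adjusted p = 0.0228 to 0.0433). Over the 10 fits that left out 1 library, the adjusted p reached 0.132 for Ccl2, 0.12 for Ccl12 and 0.171 for Ccl7. Ccl9 differed by 0.47 ± 0.26 (adjusted p = 0.196). Ccl8 differed by -0.35 ± 0.34 (adjusted p = 0.477), with 3.96 to 16.7 CPM with empty vector and 6.47 to 7.76 CPM with Ad-TGFβ1.

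In the same lungs 8 of 18 markers of tissue and scar macrophages rose and 2 fell, where 11.5% of all genes were called higher and 14.3% lower. The sum of these 18 markers was 504 to 858 CPM with empty vector and 827 to 1010 CPM with Ad-TGFβ1. The 16 markers of T and NK cells, which also make Ccl3 and Ccl4, summed to 54.5 to 139 CPM with empty vector and 170 to 195 CPM with Ad-TGFβ1, and 7 of them rose, and no marker was at 0 in every library of a group. Of 13 alveolar macrophage markers tested 8 rose, with sums of 302 to 512 and 552 to 635 CPM, and all 10 ciliated cell markers fell, with sums of 1020 to 2120 and 765 to 1120 CPM. Neutrophil markers rose in 4 of 10 tested, with sums of 92.7 to 217 and 71.8 to 285 CPM. Of the 8 classical monocyte markers, 3 rose and Hp fell. Without Hp they summed to 110 to 339 and 410 to 508 CPM. Within that sum, Ly6c2 had 3.46 to 50.6 and 22.2 to 55.1 CPM, and Plac8 8.53 to 16.9 and 19.6 to 26.6 CPM. Of 8 non-classical monocyte markers 4 rose and 1 fell, and without Ace they summed to 185 to 363 and 236 to 269 CPM. The part of these cells in the chemokine changes was not tested.

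**Figure D3:**
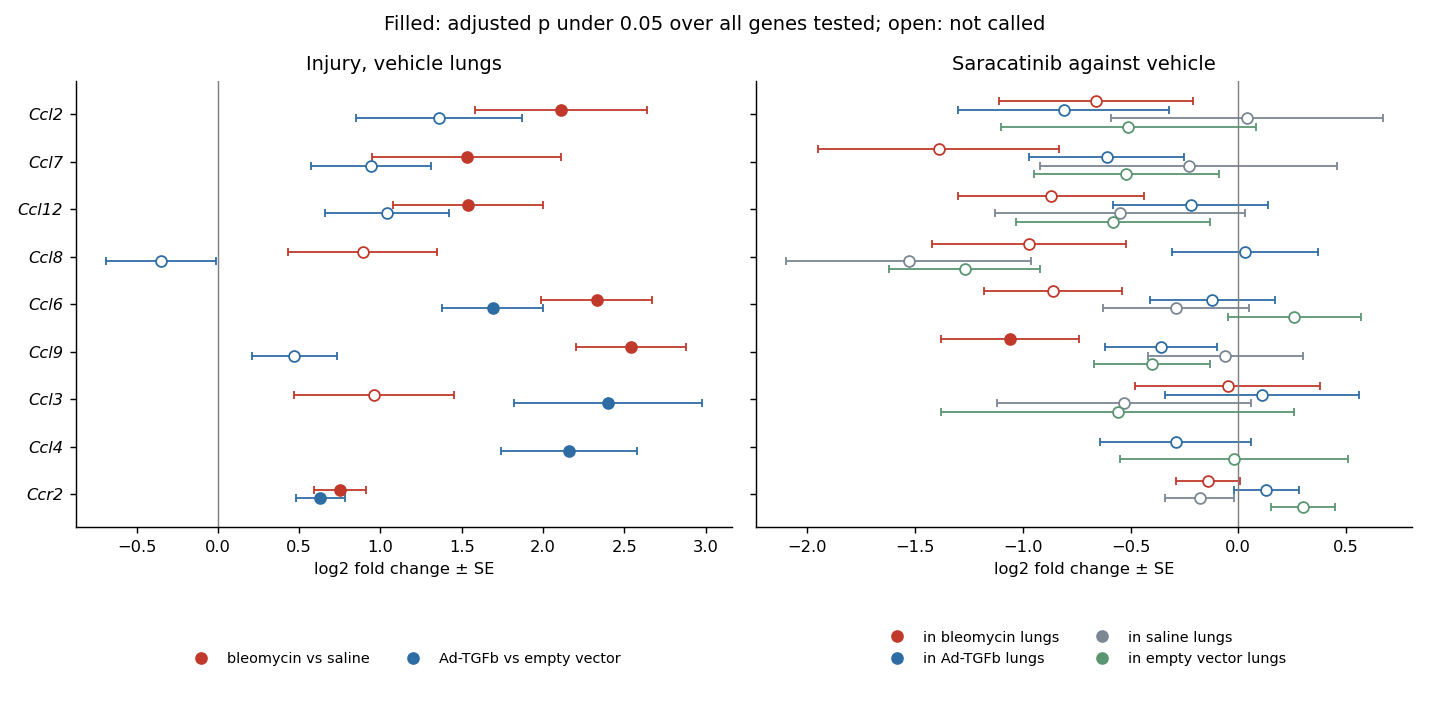
Log2 fold change ± SE of each gene for the 2 injuries in vehicle lungs (left) and for saracatinib against vehicle in each kind of lung (right), with filled points where the adjusted p over all genes is under 0.05. On the left, Ccl9 was at 2.54 with bleomycin and 0.47 with Ad-TGFβ1, while Ccl3 was at 0.96 and 2.40. On the right, 1 point is filled, Ccl9 in bleomycin lungs at -1.06.

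The injury effects were compared directly in a fit of all 40 libraries. By edgeR, Ccl9 was the 1 member of 9 whose change differed, with the bleomycin effect larger by 2.07 ± 0.44 (adjusted p = 0.00142). Among 19529 genes, 8.64% were called in that direction and 6.47% in the other. The share of members was near that of all genes. Ccl9 was called in all 20 fits that left out 1 library, with differences of 1.69 to 2.23. Ccl4 differed by -1.52 ± 0.68 (adjusted p = 0.126), Ccl3 by -1.43 ± 0.81 (adjusted p = 0.245) and Ccl8 by 1.23 ± 0.58 (adjusted p = 0.152), none of which passed. Without saline vehicle library 3, Ccl8 passed at 2.15 ± 0.55 (adjusted p = 0.00774), and without empty vector vehicle library 1, Ccl4 passed at -1.92 ± 0.70 (adjusted p = 0.0482). limma voom called Ccl4 (-2.18, adjusted p = 0.0136) and Ccl8 (1.67, adjusted p = 0.0330) as well. The difference of Ccl9 includes its level in the controls, which was 18.9 ± 8.46 CPM with empty vector and 7.74 ± 1.55 CPM with saline (SD, n = 5). The injured lungs were at 45.8 ± 26.1 CPM with bleomycin and 26.6 ± 7.13 CPM with Ad-TGFβ1, with overlapping ranges.

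The control lungs themselves differed in 3 members. In empty vector against saline vehicle lungs, Ccl8 was higher by 2.49 ± 0.43 (adjusted p = 5.41e-05), Ccl9 by 1.29 ± 0.33 (adjusted p = 0.00341) and Ccr2 by 0.81 ± 0.16 (adjusted p = 0.000333). Of all 19529 genes, 13.9% were called higher and 12.3% lower. Ccl8 had 0.529, 0.582, 4.44, 0.906 and 1.49 CPM with saline and 6.45, 4.20, 16.7, 13.9 and 3.96 CPM with empty vector. The saline library at 4.44 lay above the lowest pair of empty vector libraries, and the other four saline libraries lay below the whole empty vector group. Ccl9 and Ccr2 did not overlap between these groups. All 9 B cell markers rose too, from sums of 45.7 to 115 CPM to 147 to 364 CPM, as did 9 of 16 T and NK cell markers and all 10 markers of striated muscle, which summed to 396 to 932 CPM with saline and 436 to 4200 CPM with empty vector. Agent, route and count table all differ between these controls and cannot be told apart, and the part of the other cell types was not tested.

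Ccl9 was called lower with saracatinib in bleomycin lungs, though the call depended on single libraries. By edgeR with all libraries no other member was called in any kind of lung. Among the 8 members tested in bleomycin lungs 1 was called lower and none higher, where 8.71% of all genes were called lower and 5.31% higher. The share of members called lower was near that of all genes. All 8 differences were below 0, with a median of -0.87 against 0.01 for all genes. Ccl9 had 30.9, 10.7, 18.1, 22.1 and 27.3 CPM with saracatinib, against the 25.4 to 88.9 CPM of bleomycin and vehicle. Libraries 2, 3 and 4 lay below every vehicle lung, and libraries 1 and 5 lay within the vehicle range. The change was -1.06 ± 0.32 (adjusted p = 0.0308), and the adjusted p was 0.0116 by DESeq2 and 0.0419 by limma voom. It was -0.69 ± 0.28 and not called (adjusted p = 0.139) without bleomycin vehicle library 3, the highest of its group. The call was also lost without vehicle library 2 or without saracatinib library 2, 3 or 4 (adjusted p = 0.0524 to 0.0924), and in the fit of only these 2 groups (adjusted p = 0.0695). Leaving out the 2 libraries farthest from their groups, vehicle 3 and saracatinib 2, gave -0.51 ± 0.25 (adjusted p = 0.302).

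Ccl6 had 103, 61.0, 78.6, 101 and 131 CPM with saracatinib, all below the 132 to 245 CPM of the bleomycin vehicle lungs. Its difference of -0.86 ± 0.32 was nonetheless not called (adjusted p = 0.0792), except in the fit of only these 2 groups (adjusted p = 0.0273). Ccl7 had 0.940, 0.0745, 0.237, 0.629 and 1.13 CPM with saracatinib, against 0.676 to 2.33 CPM with vehicle, and libraries 2 and 3 were the lowest. The difference was -1.39 ± 0.56 (adjusted p = 0.0962). Ccl8 differed by -0.97 ± 0.45 (adjusted p = 0.157), Ccl12 by -0.87 ± 0.43 (adjusted p = 0.174) and Ccl2 by -0.66 ± 0.45 (adjusted p = 0.352). Without saracatinib library 1, the highest for Ccl8, that gene was called (-1.43 ± 0.47, adjusted p = 0.0428). Ccr2 stood at 42.3 to 48.7 CPM with saracatinib and 39.0 to 67.2 CPM with vehicle, a difference of -0.14 ± 0.15 (adjusted p = 0.584), and Ccl3 at -0.05 ± 0.43.

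Some macrophage markers moved the same way with saracatinib in bleomycin lungs, and some B cell markers moved the other way. Among all genes, 8.71% were called lower and 5.31% higher. Of 18 tissue and scar macrophage markers, 10 fell, with Arg1 at -2.67, Spp1 at -1.18, Fcrls at -1.14 and C1qb at -1.05. Their sum was 1540, 839, 1160, 1910 and 1660 CPM in saracatinib libraries 1 to 5. Library 2, with the lowest sum, had the lowest Ccl6, Ccl7, Ccl8 and Ccl9, while library 3 had the lowest Ccl2, Ccl3, Ccl12 and Ccr2. Library 4, with the highest sum, was the highest for Ccr2 and for no ligand, and the lowest for Ccl4. Of the 8 classical monocyte markers, 2 fell, Chil3 at -1.27 and F10 at -0.91. The sum without Hp was 181 to 261 CPM, below the 357 to 586 CPM of the vehicle group. Ly6c2 and Plac8, a small part of that sum, were not called. Ly6c2 had 3.8 to 9.01 CPM with saracatinib, overlapping the 6.08 to 9.85 CPM of vehicle. Plac8 had 10.2 to 12.7 CPM, below the 15.0 to 27.3 CPM of vehicle. Of 8 non-classical monocyte markers, 1 rose and 1 fell. Of 9 B cell markers 5 rose, and their sum was 63.9 to 108 CPM with vehicle and 111 to 171 CPM with saracatinib. Of 13 alveolar macrophage markers tested 3 fell, with sums of 698 to 1000 and 491 to 650 CPM. The part of these cells in the Ccl9 change was not tested.

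In the other lungs edgeR, DESeq2 and limma voom each called 0 members for saracatinib. The members at an unadjusted p under 0.05 numbered 0 of 9 with Ad-TGFβ1, 1 of 8 with saline and 1 of 9 with empty vector, and the last 2 were both Ccl8. The share of all genes at that unadjusted p was not computed. Called by adjusted p were 0.0903% of all genes with Ad-TGFβ1 and 0.00531% in each kind of control. With empty vector that was 1 gene, and 1112 genes without vehicle library 1. Ccl8 had 0.620, 0.557, 0.453, 0.457 and 0.638 CPM in saline lungs with saracatinib, a difference of -1.53 ± 0.57 from vehicle (adjusted p = 0.527). In empty vector lungs it had 1.96, 6.29, 3.82, 4.36 and 2.76 CPM with saracatinib, a difference of -1.27 ± 0.35 (adjusted p = 0.385). Without empty vector vehicle library 1 that difference was -1.36 ± 0.37 and was called (adjusted p = 0.039). The saline difference was -0.62 ± 0.47 (adjusted p = 0.925) without the vehicle library at 4.44 CPM. With Ad-TGFβ1, Ccl8 was at 5.67 to 8.97 CPM with saracatinib, a difference of 0.03 ± 0.34. The remaining members differed by -0.81 to 0.13 with Ad-TGFβ1, the largest being Ccl2 (adjusted p = 0.642).

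Whether saracatinib acted differently on injured and control lungs was tested by the interaction in each model, and edgeR, DESeq2 and limma voom called 0 members in either. Of all genes, 1.06% were called for bleomycin and 0.0% for Ad-TGFβ1. These were 199 genes for bleomycin, with 35 to 583 when 1 library was left out, and 0 genes for Ad-TGFβ1, with 1190 when empty vector vehicle library 1 was left out and 0 or 1 for any other library. At an unadjusted p under 0.05 there was 1 member in each, Ccl9 with bleomycin at -1.0 ± 0.48 (adjusted p = 0.27) and Ccl8 with Ad-TGFβ1 at 1.30 ± 0.49 (adjusted p = 0.481). The share of all genes at that unadjusted p was not computed. The saracatinib effect did not pass for any member between the models either, with 2.46% of all genes called and 0 members at an unadjusted p under 0.05 or by the other tools.

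Among lungs given saracatinib, 3 members rose with each injury. With bleomycin these were 3 of 8 (Ccl6 by 1.76, Ccl9 by 1.53 and Ccr2 by 0.79), where 7.79% of genes were called higher. For these 3, all bleomycin lungs lay above all saline lungs. The same held for Ccl8, at 0.453 to 0.638 and 0.745 to 3.21 CPM, which was not called (1.45 ± 0.57, adjusted p = 0.0843). DESeq2 called 6, and leaving out saline library 1, which was the highest of its group for 8 of 9 members, edgeR called 5, and without bleomycin library 3 it called 6. With Ad-TGFβ1 they were 3 of 9 (Ccl3 by 3.06, Ccl4 by 1.88 and Ccl6 by 1.31), where 2.21% of genes were called higher. The fit of only these 2 groups called 1. Leaving out Ad-TGFβ1 library 1 or 5, or empty vector library 3, 4 or 5, also left 1. Ad-TGFβ1 library 1 was highest of its group for 6 members, with 4.49 CPM of Ccl3, and library 2 was lowest for 6, with 0.192 CPM of Ccl3.

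The genes around the members did not all move with them. In the Ccl2 cluster, Ccl11, which attracts eosinophils and lies between Ccl7 and Ccl12, differed by 0.19 ± 0.31 with bleomycin and -0.01 ± 0.21 with Ad-TGFβ1. Ccl1, a CCR8 ligand at the far end, rose with Ad-TGFβ1 by 4.30 ± 0.87 (adjusted p = 0.00123) and was not tested in the bleomycin model. Its counts were very low throughout, at most 18 in any of the 40 libraries, with a mean of 0.248 CPM. In the Ccl9 cluster, Ccl5, a ligand made by T and NK cells, rose with Ad-TGFβ1 by 1.21 ± 0.32 (adjusted p = 0.0104) and differed by 0.20 ± 0.27 with bleomycin. Wfdc17, which lies beyond Ccl4 and encodes a secreted protein of activated macrophages, rose by 3.21 ± 0.34 and 1.32 ± 0.36 and fell with saracatinib in bleomycin lungs by 1.42 on the log2 scale (adjusted p = 0.00427). On the chromosome of Ccr2, Ccr1, the receptor of Ccl6 and Ccl9, rose by 2.05 ± 0.32 with bleomycin and by 1.45 ± 0.28 with Ad-TGFβ1. Ccr1 fell with saracatinib in bleomycin lungs by 1.06 on the log2 scale (adjusted p = 0.0233).

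**Figure D4:**
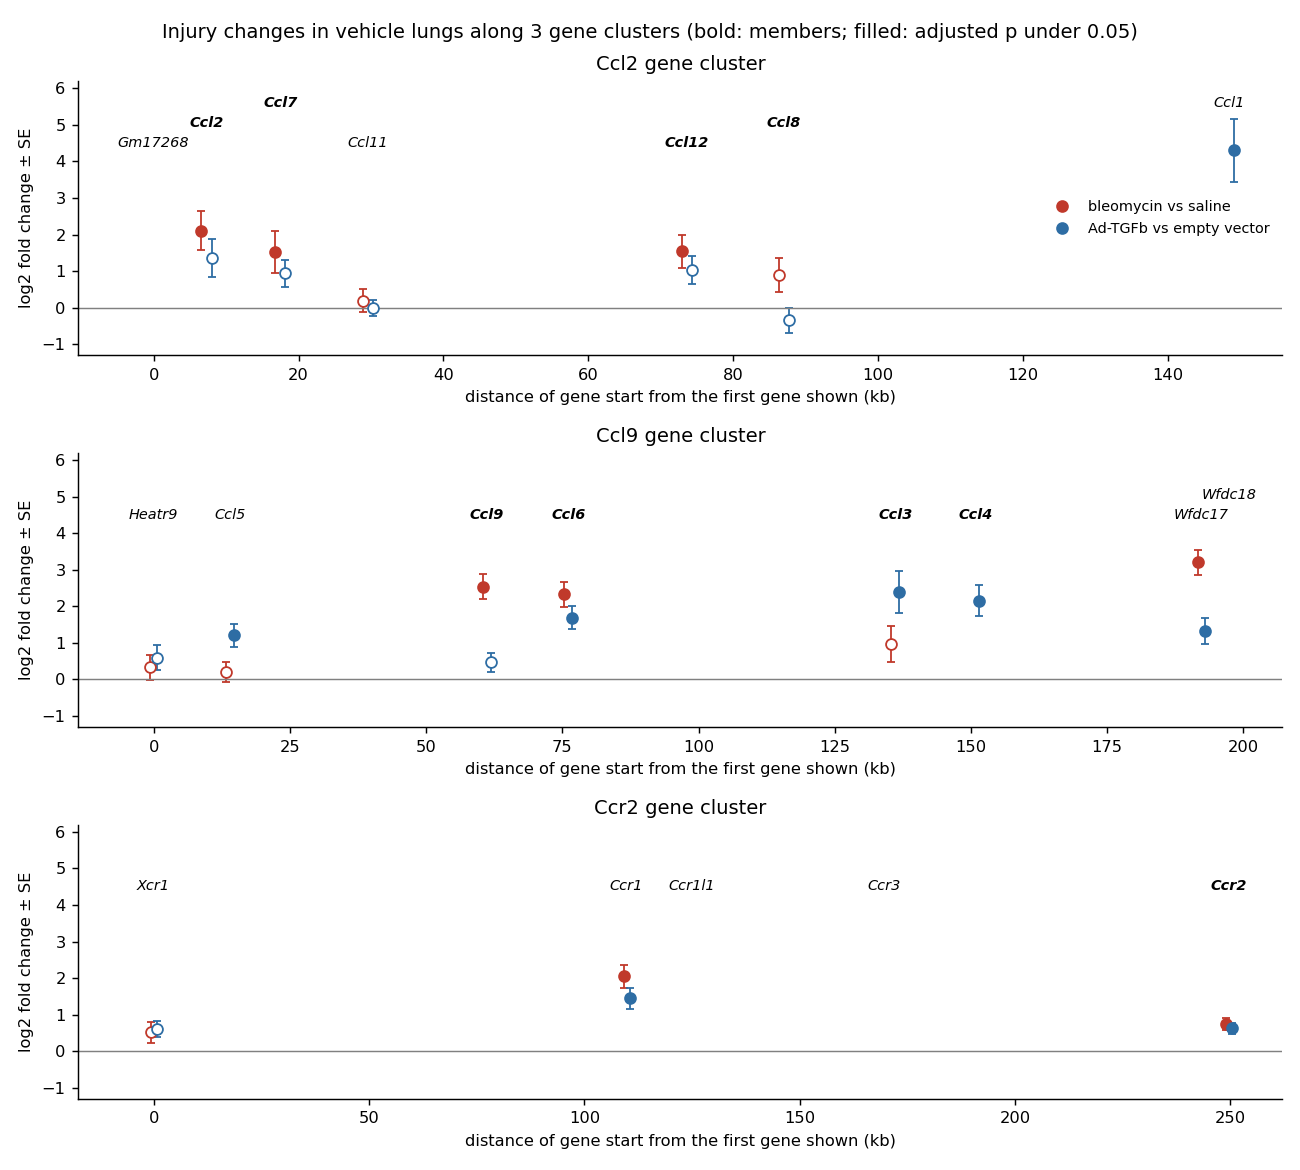
Log2 fold change ± SE for bleomycin and for Ad-TGFβ1 in vehicle lungs along 3 gene clusters, by distance in kb from the first gene shown. Members are in bold and genes with no point did not pass the filter. Ccl9 at 2.54 and Ccl6 at 2.33 stand together with bleomycin, Ccl3 at 2.40 and Ccl4 at 2.16 stand together with Ad-TGFβ1, and Ccl11 lies near 0 in both.

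Other genes of the chemokine system were taken as lists. With bleomycin 20.6% of all genes were called higher and 20.3% lower, and with Ad-TGFβ1 11.5% and 14.3%. Of the 13 other CC ligands, 8 were tested with bleomycin, of which 2 rose (Ccl17 by 1.33 and Ccl22 by 0.55, ligands of CCR4) and Ccl27a fell by 0.74. The share that rose was near that of all genes. With Ad-TGFβ1, 4 of 9 rose, namely Ccl1, Ccl5, Ccl17 by 0.71 and Ccl22 by 0.45. Among 4 scavenging receptors and the related Ccrl2, 2 rose and 2 fell with bleomycin, 3 rose with Ad-TGFβ1, and 1 rose and 2 fell with saracatinib in bleomycin lungs. Ackr1, which presents chemokines on venules, rose with bleomycin by 3.76 ± 0.45 (adjusted p = 3.46e-06), and Ackr4 fell by 2.27 on the log2 scale. With saracatinib in bleomycin lungs Ackr1 fell, at -1.33, and Ackr4 rose, at 1.94. Ackr3 rose with bleomycin by 1.32 and with Ad-TGFβ1 by 0.92 and fell with saracatinib in bleomycin lungs, at -1.21. Of 25 genes of the CXC, CX3C and XC families, 4 rose and 2 fell among 21 tested with bleomycin, and the share that rose was again near that of all genes. With Ad-TGFβ1 9 rose and 3 fell among 22, led by Cxcl9 at 2.90, Cxcl10 at 2.31 and Xcl1 at 2.29.

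Upstream, a list of cytokines that can induce CC chemokines, with their receptors and the antagonist Il1rn, had 7 of 13 tested genes higher and 1 lower with bleomycin, led by Il1rn at 2.38, Osm at 2.34, Tnfrsf1b at 1.24 and Il1b at 0.96. Il1rn encodes the receptor antagonist that blocks interleukin-1 signalling. With Ad-TGFβ1, 9 of 13 were higher, led by Ifng at 3.14, Il1rn at 1.29, Il1a at 0.94 and Il4ra at 0.85. With saracatinib in bleomycin lungs 5 of 13 fell, Il1rn by 1.21 and Osm by 0.94 the most, where 8.71% of all genes were called lower. Of 12 NF-κB subunits and feedback genes, 7 rose with bleomycin (Nfkbie by 1.03, Bcl3 by 0.65, Tnfaip3 by 0.61 and Rel by 0.57) and 3 with Ad-TGFβ1, and none was called with saracatinib in bleomycin lungs. Downstream, 8 of 13 genes of chemokine receptor signalling and chemotaxis rose with bleomycin and Elmo1 fell, led by the complement receptor C5ar1 at 1.31, the kinase subunits Pik3cg at 1.23 and Pik3r5 at 1.13, and Vav1 at 1.09. With Ad-TGFβ1 6 of 13 rose, led by the formyl peptide receptors Fpr2 at 1.99 and Fpr1 at 1.30. Of 10 growth factor genes of macrophages and their receptors, 9 were tested, and 4 rose and Flt3l fell with bleomycin, with Csf2rb at 1.94 and Csf1r at 0.83. With Ad-TGFβ1 5 of 9 rose, Csf2 by 1.13 the most. These shares stand beside 20.6% of all genes higher with bleomycin and 11.5% with Ad-TGFβ1.

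The pattern of each member over the 8 group means was compared with every non-member gene that had a symbol and a mean of at least 1 CPM. The measure was the root mean square difference of centred log2 CPM. Members were not compared with each other. The 3 genes most like Ccl9 were Csf2rb2, a subunit of an interleukin-3 receptor, at 0.123, Clec4a2 at 0.181 and C1qa at 0.188, against a span of 2.55 between the highest and lowest group of Ccl9. The 3 most like Ccl6 were Cd200r4 at 0.090, Oas3 at 0.172 and Ctss, a cathepsin of antigen-presenting cells, at 0.182. For Ccl4 they were Gbp5 at 0.184, Gm5970 at 0.189 and Cd274 at 0.219, and for Ccl3 Mmp13 at 0.244, Cfb at 0.342 and Fcgr4 at 0.359. Ccl8 had no such non-member gene closer than Slpi at 0.370. Ccr2 was closest to Map2 at 0.103, Ccl2 to Gm46224 at 0.186, Ccl7 to Hist2h2bb at 0.135 and Ccl12 to Aoah at 0.132. The highest group was bleomycin with vehicle for Ccl6 and Ccl9, empty vector with vehicle for Ccl8, and Ad-TGFβ1 with vehicle for Ccl2, Ccl3, Ccl4, Ccl7 and Ccl12 by mean log2 CPM. Ccr2 was highest with Ad-TGFβ1 and saracatinib. All 9 except Ccl3 were lowest in saline lungs with saracatinib.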

How the data were processed

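Left-lung RNA libraries were made with a stranded kit after depletion of ribosomal RNA, per the labels' protocols. The authors deposited whole-number counts per gene, one table for each model. STAR 2.6.1d, Picard, Subread 1.6.3 with featureCounts, and edgeR are named with the builds mm9 and GRCm38 in the submitters' processing notes; no source used here gives the strand setting of the counting. Symbols were found for 55450 of 55536 identifiers. Library totals were 8812233 to 17336972 counts. Separate deposited tables called TMM-normalized were not used.

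Counts were tested with edgeR 4.0.16 in R 4.3.3 (filterByExpr, TMM, one mean per group, quasi-likelihood test), within each model's 20 libraries or over all 40, with Benjamini-Hochberg adjustment over all genes tested. The script was tested on simulated data. Alternatives were DESeq2 1.42.0, limma 3.58.1 voom with quality weights, DESeq2 size factors, no filter, only the compared groups, each library left out, and, chosen after seeing the data, leaving out, per model, the 2 libraries with the greatest distance from their group's centroid. Like genes were sought among non-members with a symbol and a mean of at least 1 CPM. Lists name up to 4 called genes by size of change. The members and lists were chosen with earlier results of these data known. An item among the lists is not reported here.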

Additional observations from a re-analysis of the deposited data

Results flagged for a closer look

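Of 72 sets of 5 libraries (9 genes in 8 groups), 2 had a library far from the other four, where chance gives about 1 in 20. Ccl2 was at 1.49 CPM in saline saracatinib library 1, the highest of its group, which was also the highest of its group for 8 of the 9 genes. Ccl3 was at 0 CPM in empty vector vehicle library 5, the lowest of its group. The injury effect on Ccl9 differed between the models by 2.07 ± 0.44 on the log2 scale (adjusted p = 0.00142, edgeR), larger with bleomycin. Among all genes, 8.64% were called in that direction.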

How the results depend on the processing

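Of 2085 values of the members under the alternatives, 2018 kept their side of the threshold, 38 passed it and 29 no longer passed it. Among the 2018, 65 uncalled values changed sign and stayed uncalled, and 0 called values changed sign. The number of members called with bleomycin in saracatinib lungs went from 3 to 6 by DESeq2 and to 5 without the far libraries, and was 3 to 6 with 1 library left out. With Ad-TGFβ1 in saracatinib lungs it went from 3 to 1 in the fit of only the compared groups, and was 1 to 4 with 1 library left out. With Ad-TGFβ1 in vehicle lungs it was 4, and 4 to 7 with 1 library left out. The injury effect between models went from 1 to 3 by limma voom and was 1 to 2 with 1 library left out. Saracatinib in bleomycin lungs went from 1 to 0 without the far libraries and was 0 to 2 with 1 library left out, and in empty vector lungs it was 0 to 1. The causes were not tested. Over all genes, saracatinib in bleomycin lungs gave 2643 calls, 486 without the far libraries and 1326 to 2985 with 1 library left out (1326 without bleomycin saracatinib library 2, 1339 without bleomycin vehicle library 3). The interaction in the bleomycin model gave 199 calls, 838 by DESeq2, 415 by limma voom, 20 without the far libraries and 35 to 583 with 1 library left out. The interaction in the Ad-TGFβ1 model gave 0, with 1 by DESeq2, 413 by limma voom and 1190 without empty vector vehicle library 1, against 0 or 1 without any other library. The saracatinib effect between models gave 481, with 766 by DESeq2, 219 with no filter, 23 without the far libraries and 106 to 803 with 1 library left out. The injury effect between models gave 2951 and 4756 by limma voom, empty vector against saline 5123 and 3132 with only the compared groups, and Ad-TGFβ1 in saracatinib lungs 485, with 793 by DESeq2, 959 by limma voom and 181 to 665 with 1 library left out. Bleomycin in saracatinib lungs gave 3011, and 1672 to 3356 with 1 library left out. Saracatinib gave 17 calls with Ad-TGFβ1 (51 by DESeq2, 101 by limma voom, 0 to 14 with 1 library left out), 1 with saline (52, 9, 3 with no filter and 0 to 4 with 1 library left out) and 1 with empty vector (1112 without empty vector vehicle library 1 and 0 to 4 without any other library, 7 by DESeq2, 0 with no filter, only the compared groups or without the far libraries). For saracatinib with Ad-TGFβ1, neither far library was in the groups compared. Low counts limit Ccl3, Ccl4 and Ccl7, each with a library at 0. They also limit Ccl2 and Ccl12, each with as few as 2 counts in a library, and Ccl8, with as few as 4. No paired analysis was possible because the labels give no replicate numbers that link libraries across groups.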
